A study of Homo sapiens with 33 samples.

Results

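The HOX genes are homeobox transcription factor genes that lie in 4 clusters, HOXA, HOXB, HOXC and HOXD. They were taken as every RefSeq protein-coding gene whose symbol is HOXA, HOXB, HOXC or HOXD followed by a number. This gave 39 of the 19974 protein-coding genes on chromosomes 1 to 22 and X. On hg38 the 11 HOXA genes lie at chr7:27092993-27200091, the 10 HOXB genes at chr17:48528526-48728750, the 9 HOXC genes at chr12:53938831-54056030 and the 9 HOXD genes at chr2:176087487-176190907. The measurements are peaks of HA-tagged MITF, mapped by CUT&Tag in UACC-257, a human melanoma cell line. In CUT&Tag an antibody, here against the HA tag, guides a transposase that cuts and tags the DNA around the bound protein. All 11 groups carried an MITF knockdown and were treated with doxycycline. Of these groups, 9 are named for MITF variants, 1 is named WT and 1 Empty, each with 3 deposited libraries. The variants are K243A, G244E, Y253A, E260A, Q261A, A264C, N278D, rep217A and rep263A. The names are given as in the titles, and the sources used here do not say what rep217A and rep263A stand for. The lists of replicates 2 and 3 were identical in rep217A and in rep263A, and each identical pair was counted once, which left 31 distinct libraries. The labels do not say whether the libraries of a group came from separate cultures, so p-values measure only the spread between these libraries, which may be technical.

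HOX proteins give cells their position along the body axis. In each cluster the genes stand in the order in which they are used from head to tail, so that low-numbered genes act in anterior parts and high-numbered genes in posterior parts. The clusters are textbook targets of Polycomb silencing and of trithorax activation, and the proteins bind DNA together with TALE cofactors of the PBX and MEIS families. MITF is the basic helix-loop-helix leucine zipper factor that directs the melanocyte lineage and binds E-box motifs such as CACGTG and CATGTG.

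RefSeq promoter sequences (GRCh38.p14, 300 bases, most of them before the start of a transcript) were at hand for 20 of the 39 genes, as 27 windows. HOXB1 was the only HOXB gene among them, and HOXC4 and HOXC5 the only HOXC genes. HOXA5 and HOXC13 had no window, and HOXA3 had several. The shares below thus mostly describe HOXA and HOXD. CACGTG, which reads the same on both strands, occurred in 9 of the 27 windows, or 33.3%, against 7.26% of all 35116 promoter windows. CATGTG, searched on both strands and so also as CACATG, occurred in 9 of the 27, or 33.3%, against 11.1% of all windows. HOXC4 and HOXC5 share 1 window, so 26 of the 27 are distinct, 9 of them with CACGTG and 8 with CATGTG. Of the distinct windows 7 held the summit of a peak that recurred in all WT libraries: 3 of these had CACGTG and 4 had neither motif, while 6 windows with CACGTG held no such summit. The 4 windows below each hold such a summit, and capitals mark CACGTG. A match is a description of letters and not of a bound site. The HOXA4 window (chr7:27130708-27131007, minus strand) has its motif centre 45 bp from the summit, the HOXD1 window (chr2:176188418-176188717, plus strand) 11 bp and the HOXD11 window (chr2:176107030-176107329, plus strand) 49 bp. All are printed 5′ to 3′ on the strand named. The HOXA13 window (chr7:27200042-27200341, minus strand) is 1 of the 4 with neither motif. They were chosen after their values were seen.
HOXA4: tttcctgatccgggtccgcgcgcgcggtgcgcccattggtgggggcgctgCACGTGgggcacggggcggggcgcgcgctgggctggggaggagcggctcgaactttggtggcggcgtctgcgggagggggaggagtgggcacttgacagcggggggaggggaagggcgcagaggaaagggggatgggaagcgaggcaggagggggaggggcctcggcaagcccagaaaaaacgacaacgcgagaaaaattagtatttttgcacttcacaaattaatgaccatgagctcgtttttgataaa
HOXD1: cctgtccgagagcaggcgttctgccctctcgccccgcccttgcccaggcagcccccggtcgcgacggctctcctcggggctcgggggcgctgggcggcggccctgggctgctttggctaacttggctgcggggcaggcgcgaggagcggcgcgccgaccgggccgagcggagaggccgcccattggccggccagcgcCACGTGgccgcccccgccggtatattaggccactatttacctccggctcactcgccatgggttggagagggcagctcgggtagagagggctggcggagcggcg
HOXD11: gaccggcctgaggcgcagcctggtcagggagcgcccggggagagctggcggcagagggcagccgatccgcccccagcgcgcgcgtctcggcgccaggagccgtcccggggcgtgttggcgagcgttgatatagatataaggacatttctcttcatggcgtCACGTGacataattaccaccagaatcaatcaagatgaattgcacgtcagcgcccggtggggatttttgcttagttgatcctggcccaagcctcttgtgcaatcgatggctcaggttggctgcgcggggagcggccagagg
HOXA13: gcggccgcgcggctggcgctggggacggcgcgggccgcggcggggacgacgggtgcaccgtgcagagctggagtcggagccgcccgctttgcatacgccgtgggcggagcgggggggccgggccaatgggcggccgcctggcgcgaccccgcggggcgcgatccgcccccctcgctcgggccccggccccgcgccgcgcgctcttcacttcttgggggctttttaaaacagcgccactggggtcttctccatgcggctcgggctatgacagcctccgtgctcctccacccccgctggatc

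The lists held 81488 to 300000 peaks. Their relative depth was taken as the commonest local background (in fragments) that the deposited fold and p imply. It was 1.04 to 1.49 in A264C, 0.991 to 1.16 in Y253A, 0.882 to 1.12 in N278D, 0.835 to 0.961 in E260A and 0.697 to 0.885 in Q261A. It was lower in rep263A (0.427 and 0.487), rep217A (0.276 and 0.348), K243A (0.132 to 0.244) and G244E (0.108 to 0.151). WT had 1.08 to 1.201 and Empty at most 0.03. Because −log10 q grows with depth, each gene was given a percentile within its library. The genes were ordered by the highest −log10 q of any peak with its summit within 5000 bp of the gene span, from 0 for the weakest to 100 for the strongest, and genes with no such peak shared the middle of the lowest ranks. In the Empty lists 60.7% to 67.6% of peaks rested on a pileup of 1 fragment, so an Empty percentile orders very small counts. Of the G244E lists, 2 stop at exactly 300000 peaks. Neighbouring HOX genes share peaks: the 39 genes had 29 distinct best peaks in WT replicate 1, so they are not independent of each other. Peak lists show where tagged MITF was recovered and not whether a gene was expressed.

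In WT the HOX genes mostly ranked below the middle of all genes, with a few strong exceptions in HOXC and HOXA. The percentile takes the best peak over the whole gene span and was not adjusted for gene length. The long genes HOXA3 and HOXB3 had 21 to 23 and 15 to 22 summits in WT, against 4 to 5 at HOXC13. How far length sets these ranks was not tested. Of the 39 genes, 10 had a mean percentile above 50, against 50.1% of all genes, and only HOXC13 was above 90. HOXC13, a posterior gene known for its part in hair follicles, averaged 94.7 ± 1.73 (SD, n = 3). The central genes HOXC4, HOXC5 and HOXC6 shared 1 best peak and averaged 80.6 ± 0.559 (SD, n = 3). HOXC11 and HOXC12, posterior genes next to HOXC13, were the lowest of that cluster, at 19.0 ± 3.34 and 15.5 ± 3.83 (SD, n = 3 each).

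In HOXA the leading genes were HOXA3, HOXA5 and HOXA6, which shared 1 best peak in WT and averaged 76.2 ± 0.213 (SD, n = 3). HOXA10 and HOXA11, posterior genes known from the development of the uterus, averaged 27.5 ± 4.60 and 20.04 ± 0.874 (SD, n = 3 each). In HOXB the highest was HOXB3, at 49.99 ± 2.69, followed by HOXB6 and HOXB7, which shared a peak at 38.9 ± 4.16 (SD, n = 3 each). The lowest HOXB genes were HOXB13, known as a prostate lineage factor, at 23.8 ± 6.61, and HOXB1, a hindbrain gene, at 13.5 ± 7.60 and with a peak in 2 of the 3 WT libraries. In HOXD the limb genes HOXD12 and HOXD13 shared a peak at 61.1 ± 4.33. HOXD8 averaged 35.2 ± 1.46, and the lowest HOXD genes were HOXD3 and HOXD4 (31.9 ± 3.47, shared) and HOXD11 (21.3 ± 3.10; SD, n = 3 each). HOXB4, HOXB9, HOXB2 and HOXB8, with means of 29.4 in HOXB4 to 31.6 in HOXB8, did not differ beyond their SDs, whereas HOXC13 stood clear of every other HOX gene in all 3 WT libraries. Every HOX gene but HOXB1 had a peak in all 3 WT libraries, and 26 of the 39 had one in all 3 Empty libraries.

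**Figure D1:**
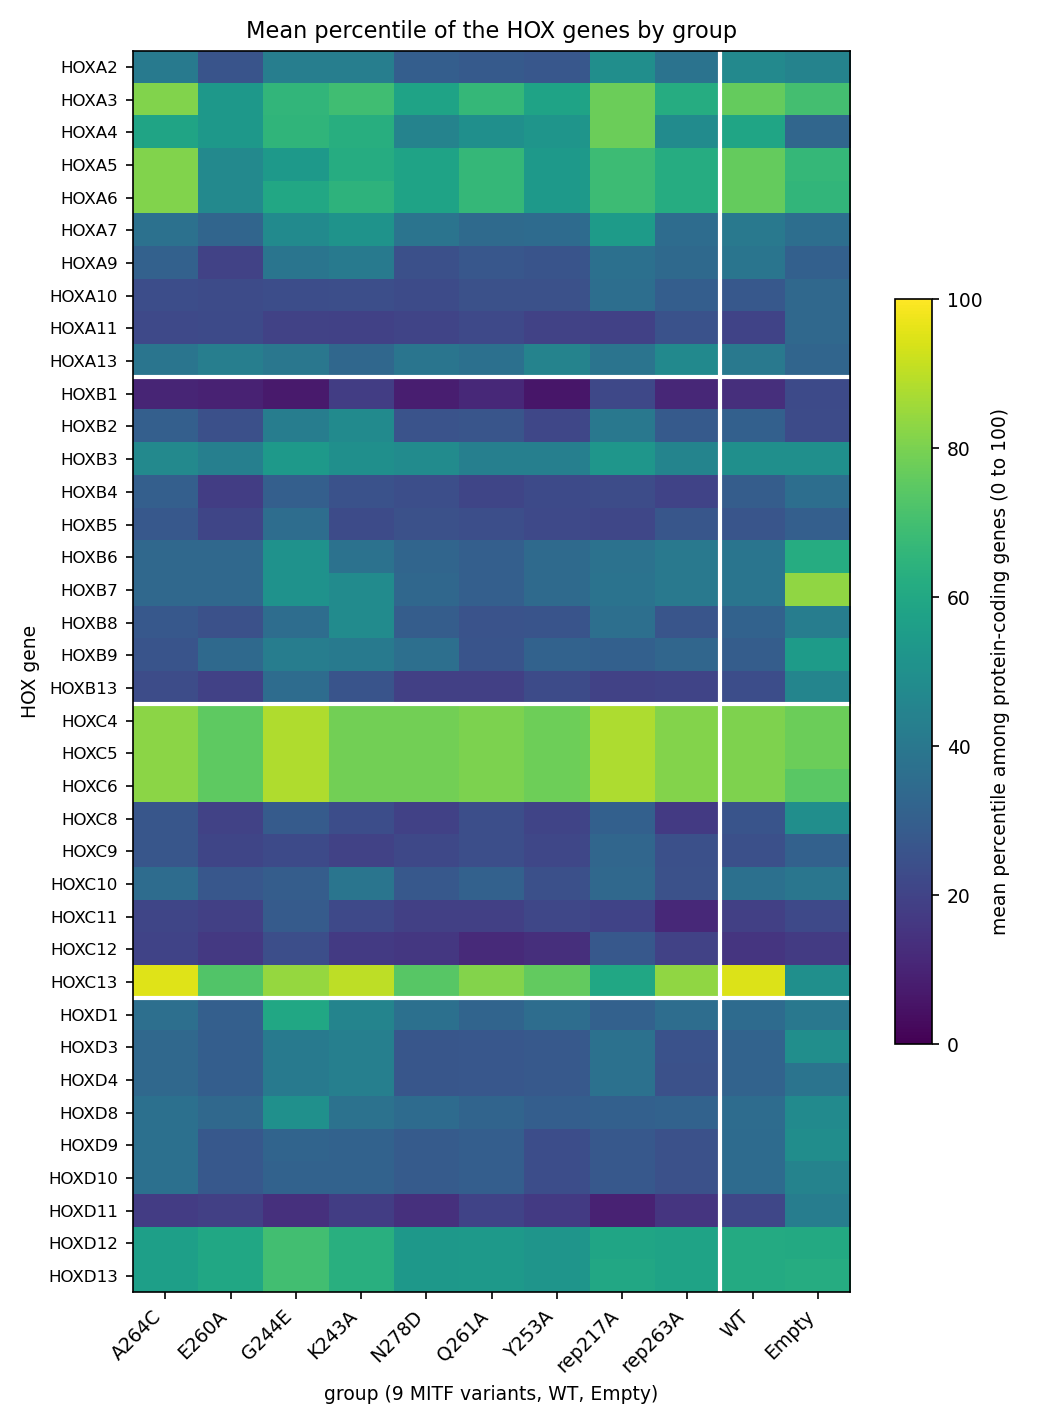
Mean percentile of 38 of the 39 HOX genes (down, by cluster) in each of the 11 groups (across, variants then WT then Empty); colour runs from 0 (weakest best peak among all protein-coding genes) to 100 (strongest). HOXC13, at 94.7 in WT, HOXC4 to HOXC6, HOXA3, HOXA5 and HOXA6 are the brightest rows in WT and A264C, and HOXB7 is bright in Empty.

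Peak positions were compared at 89 sites at HOX genes where a summit recurred in all 3 WT lists, of 103822 such sites in the genome. Because WT lists chose them, they describe WT binding and what became of it elsewhere. HOXA held 26 of them, HOXB 27, HOXC 16 and HOXD 20, and 41 lay within 500 bp of an end of a gene. Summits were dense in the clusters: over the 31 libraries the windows of the HOXA genes held 1.81 to 6.94 times the genome's rate of summits per base (median 5.09). The median was 5.37 for HOXB, 3.87 for HOXC and 4.85 for HOXD, and 1.41 for the windows of all protein-coding genes. The lowest values came from the long lists of G244E and K243A. The ranges of WT and Empty overlapped in every cluster, with medians of 5.13 in WT, against 5.41 in Empty for HOXA, 5.66 against 4.83 for HOXB, 3.70 against 4.24 for HOXC and 4.99 against 5.16 for HOXD. The sites were nevertheless weaker than most, since only 32 of the 89 had a mean WT percentile above 50 among all sites, and their median was 43.0.

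The strongest HOX site lay at chr12:53938622, 209 bp outside the HOXC13 gene. Its recovered pileup, the number of fragments over the summit, averaged 307 ± 27.6 in WT (SD, n = 3, with 309 and 333 in replicates 2 and 3) and was 2 in the only Empty list that held it. The summit stood 19.9 to 21.4 times over background in WT, by the authors' fold. Another summit inside HOXC13, at chr12:53938960, had pileups of 95, 91 and 120 in WT. The second site, at chr12:54018128 inside the overlapping HOXC4, HOXC5 and HOXC6 genes, had pileups of 180, 169 and 186 in WT, against 7, 1 and 6 in Empty. Pileups are not scaled to depth, which was 1.08 to 1.201 in WT and 0.03 in Empty. By site percentile WT and Empty overlapped at this second site. The HOXC4 gene percentile was 79.96 to 81.04 in WT, against 45.9 to 95.1 in Empty. The third site, at chr7:27143820, lay 139 bp outside HOXA5 and in the windows of HOXA3, HOXA5 and HOXA6, with 175, 161 and 171 fragments in WT. The HOXA4 site at chr7:27130909, 152 bp outside the gene and in the promoter window printed above, had 94, 88 and 88 in WT. In Empty it had 1, 1 and 2, and the site percentiles of WT and Empty overlapped. By contrast the HOXD1 promoter site had 25, 34 and 43 in WT and the HOXD11 promoter site 12, 16 and 11. The HOXA13 site, whose window lacked both motifs, had 42, 38 and 31 in WT.

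**Figure D2:**
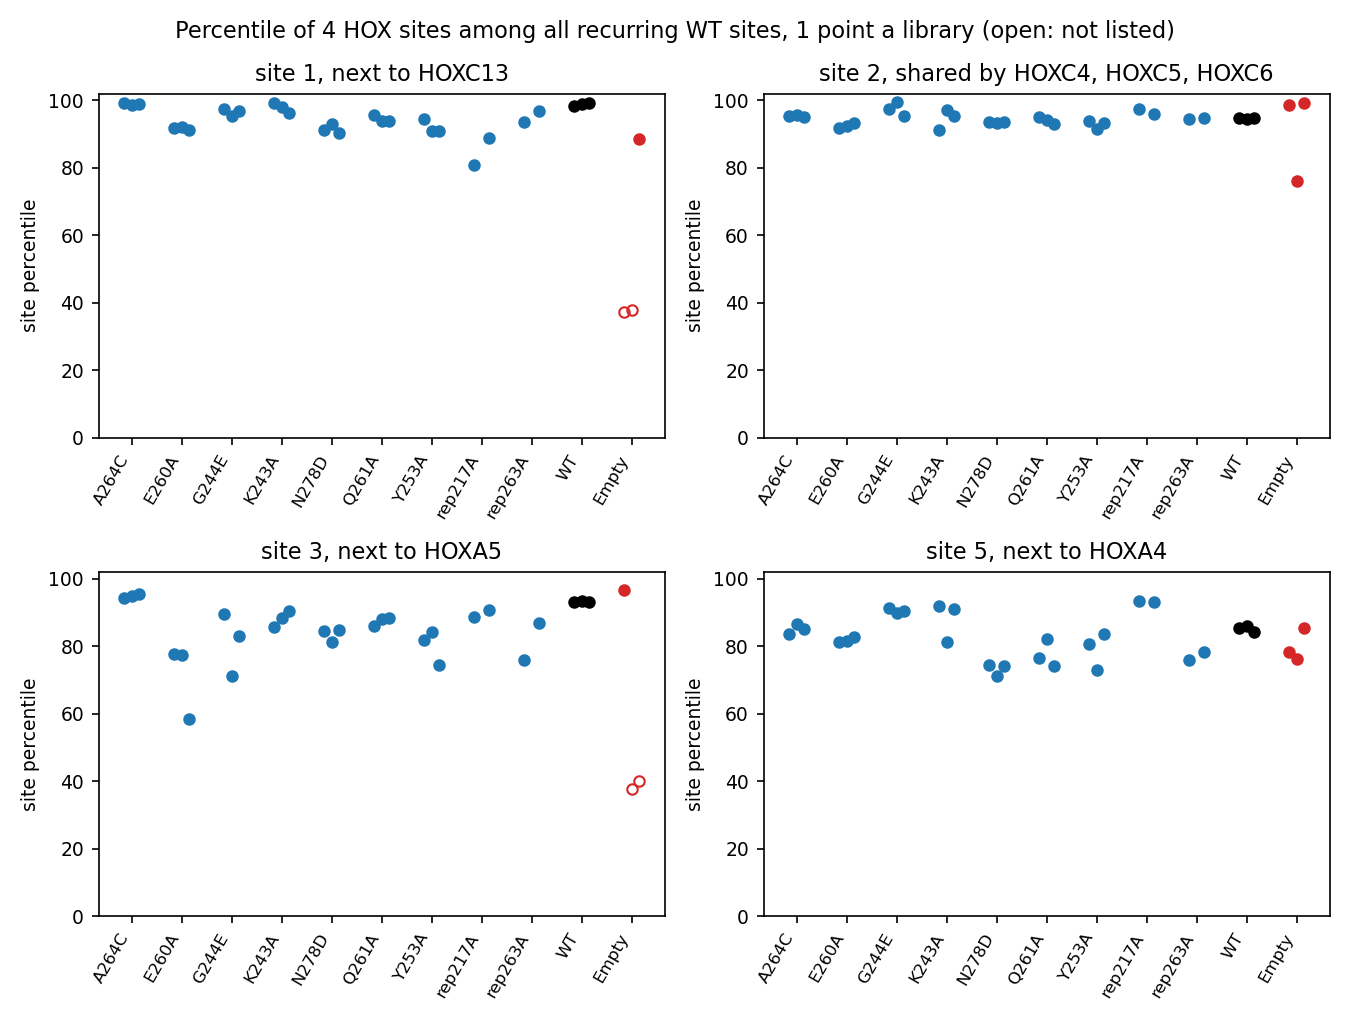
Percentile, among all sites recurring in WT, of the sites beside HOXC13, HOXC4, HOXA5 and HOXA4 (panels), with 1 point for each library, by group; open points are libraries that did not list the site. The HOXC13 site is at 90.4 to 92.8 in N278D and at 81.0 and 88.8 in rep217A, against 98.2 to 99.1 in WT.

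Against Empty, WT had 2 HOX genes that ranked higher and 8 that ranked lower, beside 20.7% of all tested genes called higher and 20.4% called lower (limma on percentiles, adjusted p under 0.05, 19251 genes tested). HOXC13 was at 92.7, 95.5 and 95.8 in WT, against 42.4, 63.2 and 43.9 in Empty. The groups did not overlap, and the difference was 44.8 percentile points (SE 4.57, adjusted p = 3.22e-08). HOXA4, a central gene, was at 58.6, 60.7 and 57.2 in WT, against 19.0, 45.9 and 34.1 in Empty, a difference of 25.8 (SE 5.70, adjusted p = 0.000846). HOXB7, a central gene studied in melanoma, was at 36.1, 37.0 and 43.7 in WT, against 77.3, 82.1 and 90.6 in Empty, a difference of −44.4 (SE 4.28, adjusted p = 1.35e-08). Its best peak held 42, 36 and 56 fragments in WT, against 3, 4 and 4 in Empty. The WT peak thus held more fragments at a lower percentile, in lists of unlike depth (1.08 to 1.201 in WT, 0.03 in Empty). The cause was not tested. HOXB9, a posterior gene, was at 28.2, 32.0 and 28.4 in WT, against 58.8, 38.8 and 66.6 in Empty (difference −25.1, SE 6.43, adjusted p = 0.00302). Its pileups were 26, 26 and 26 in WT, against 3, 2 and 2 in Empty.

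The other called genes were lower in WT by 13.6 to 23.3 points. HOXD3 was at 28.1, 32.7 and 34.9 in WT, against 35.7, 45.9 and 66.6 in Empty (−17.5, SE 5.77, adjusted p = 0.0175). In HOXC8 (−23.3, adjusted p = 0.0251), HOXB6 (−23.0, 0.0240), HOXB13 (−21.9, 0.0118), HOXD11 (−21.0, 0.0311) and HOXA11 (−13.6, 0.0319) the WT and Empty libraries overlapped, and HOXD11 had a peak in 2 of the 3 Empty libraries. Only HOXC13, HOXA4, HOXB7 and HOXB9 kept their call whichever library was left out. HOXD3 lost it without Empty replicate 3 (−8.89, adjusted p = 0.156) or WT replicate 1, HOXB13 without Empty replicate 3 or WT replicate 2, and HOXB6, HOXC8, HOXD11 and HOXA11 without any of 4 or more libraries. HOXA11 and HOXB13 turned to 0.314 and 5.79 points higher in WT, with no call, when only peaks inside the gene span counted, and HOXB13 to 3.495 with a window of 1000 bp. In each of these 3 cases 2 of the 3 Empty libraries had such a peak. HOXC13 (26.5, adjusted p = 0.0639), HOXB7 (−10.0, 0.540) and HOXB9 (−8.51, 0.544) missed the threshold with the gene span alone, and HOXB7 also with 1000 bp (−11.6, 0.426). After peaks were thinned to the depth limit of Empty, 3 calls remained, those of HOXC13, HOXA4 and HOXB7. Over all 39 genes the median difference was −3.10, beside −1.49 over all tested genes.

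All 9 variants were compared with the same 3 WT libraries, so the comparisons are not independent of each other and their values are given side by side. Counts of called HOX genes ran from 0 in A264C, G244E, K243A, Q261A and rep263A to 1 in N278D and Y253A, 2 in rep217A and 5 in E260A. The fit missed most shifts of 20 points in simulated data, so a gene without a call may still have moved. The fit shares 1 estimate of the spread per gene over all groups, Empty included. Leaving Empty out of the fit, an alternative chosen after seeing the data, raised the counts, as given below. It raised the share of all genes called as well.

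E260A had the most HOX genes called, and all 5 ranked lower than in WT, beside 2.48% of all genes called lower. HOXC13 was at 73.1, 73.3 and 72.0 in E260A, against 92.7, 95.5 and 95.8 in WT (difference −21.8, SE 4.57, adjusted p = 0.00367). HOXA5 was at 47.9, 46.4 and 47.4 in E260A, against 76.0, 76.5 and 76.2 in WT (−29.0, SE 7.60, adjusted p = 0.0206). Both stood well apart from WT, with libraries of a group within a few points of each other. HOXA6 had the same values as HOXA5 from the same peaks (−29.0, SE 7.36, adjusted p = 0.0168), and HOXA3, an anterior gene used in thymus and parathyroid development, was at 52.7, 52.2 and 55.3 in E260A, against 76.0, 76.5 and 76.2 in WT (−22.8, SE 5.82, adjusted p = 0.0170). HOXA9, a posterior gene known from leukaemia, was at 21.7, 19.7 and 17.7 in E260A, against 36.8, 40.2 and 39.3 in WT (−19.1, SE 5.74, adjusted p = 0.0476). At the site beside HOXA5 the pileups were 63, 66 and 35 in E260A, against 175, 161 and 171 in WT. At the main HOXC13 site they were 97, 108 and 87 in E260A, against a mean of 307 in WT, and the summit inside HOXC13 was in none of the E260A lists.

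With any 1 library of E260A or WT left out, only 1 or 2 HOX genes remained called in E260A, HOXC13 always among them. HOXC13 missed the threshold with a window of 1000 bp (−19.7, adjusted p = 0.0592), and when genes were ranked by the authors' fold only HOXA9 was called. No library of E260A or WT had a peak inside HOXA6 or HOXA9 or within 1000 bp of HOXA6, so these windows give no value for them. Within 1000 bp of HOXA9 1 of the 3 E260A libraries had a peak and no WT library did (3.83, with no call). With Empty left out of the fit, 8 HOX genes were called lower, beside 8.38% of all genes, among them HOXA2 (−20.8, adjusted p = 0.00148) and HOXB4 (−11.4, adjusted p = 0.0368). After peaks were thinned to 1 common depth, 10 were called lower, beside 5.18% of all genes, among them HOXC4 (−13.4, adjusted p = 0.0468). Over all 39 genes the median difference was −5.47, beside −0.2996 over all tested genes, and 35 of the 39 differences were negative.

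In N278D and Y253A the called gene was HOXC13, and it ranked lower than in WT in both. It was at 72.9, 76.9 and 72.1 in N278D, against 92.7, 95.5 and 95.8 in WT (−20.7, SE 4.57, adjusted p = 0.00946), beside 1.39% of all genes called lower. In Y253A it was at 82.2, 72.6 and 73.3 (−18.6, SE 4.57, adjusted p = 0.0184), beside 1.12% of all genes called lower. Neither group overlapped WT. The pileups at the main HOXC13 site were 115, 136 and 124 in N278D and 170, 124 and 114 in Y253A, against a mean of 307 in WT. The N278D call was lost without N278D replicate 1 or WT replicate 3. The Y253A call was lost without replicate 2 or 3 of either group. Both were also lost with the gene span alone, with a window of 1000 bp or with ranking by fold.

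The genes near the HOXA5 site were lower in these groups without passing the threshold. HOXA5 was at 59.3, 53.5 and 60.9 in N278D and at 55.3, 59.3 and 46.0 in Y253A, against 76.0, 76.5 and 76.2 in WT. With Empty left out of the fit, 8 HOX genes were called lower in each comparison, beside 6.49% of all genes for N278D and 5.78% for Y253A. HOXA2, HOXA3, HOXA5, HOXA6, HOXA9 and HOXC13 were among them in both lists, with HOXA5 at −18.3 (adjusted p = 0.00484) in N278D and −22.7 (adjusted p = 0.000801) in Y253A. HOXA4 was also among them in N278D, and HOXC10 in Y253A. At the common depth 3 HOX genes were called lower in N278D (HOXA3, HOXA6 and HOXC13), beside 3.6% of all genes. The median difference over the 39 genes was −5.13 in N278D and −5.22 in Y253A, beside −0.158 and −0.444 over all genes, and 35 of the 39 differences were negative in each.

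Q261A and rep263A had no HOX gene called, beside 1.32% of all genes called in Q261A and 0.151% in rep263A. At an unadjusted p under 0.05 there were 4 HOX genes in Q261A (9.38% of all genes) and 2 in rep263A (7.38%), all lower. HOXC13 was at 84.3, 79.6 and 80.5 in Q261A and at 78.7 and 88.4 in rep263A, against 92.7, 95.5 and 95.8 in WT. These did not overlap WT, but the differences of −13.2 (adjusted p = 0.211) and −11.1 missed the threshold. With Empty left out of the fit, HOXA2 (−18.6, adjusted p = 0.0103) and HOXC13 (adjusted p = 0.0183) were among the genes called lower in Q261A, beside 2.48% of all genes, and HOXA3 (−14.5, adjusted p = 0.0204) in rep263A, beside 1.67%. In Q261A 38 of the 39 differences were negative, with a median of −4.94, beside −0.230 over all genes. In rep263A 26 were negative, with a median of −4.42, beside 0.181 over all genes.

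In rep217A HOXC13 ranked lower and HOXA4 higher than in WT, beside 7.81% of all genes called lower and 6.44% called higher. HOXC13 was at 51.9 and 67.0 in rep217A, against 92.7, 95.5 and 95.8 in WT (−35.2, SE 5.11, adjusted p = 3.08e-05), below its values in every other group but Empty. HOXA4 was at 77.6 and 77.7 in rep217A, against 58.6, 60.7 and 57.2 in WT (18.8, SE 6.38, adjusted p = 0.0482). At the HOXA4 site of the printed promoter the site percentile was 93.3 and 93.2 in rep217A, against 85.3, 86.1 and 84.1 in WT, although the pileups were 35 and 39 in rep217A, against 94, 88 and 88 in WT. HOXC13 kept its call whichever library was left out and at the common depth (−29.0, adjusted p = 0.000144), but not with the gene span alone. HOXA4 lost its call without any 1 library of rep217A or WT or with ranking by fold, and kept it at the common depth (18.0, adjusted p = 0.0184). With Empty left out of the fit, 3 HOX genes were called in rep217A, beside 30.1% of all genes: HOXA4 higher, HOXC13 lower and HOXD11 lower (−11.8, adjusted p = 0.0273). The median difference over the 39 genes was 1.02, beside 0.436 over all genes.

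G244E and K243A, the shallowest of the tagged groups, had no HOX gene called, beside 12.1% of all genes called in G244E and 2.88% in K243A. At an unadjusted p under 0.05 there were 7 HOX genes in G244E (25.3% of all genes) and 3 in K243A (14.7%). HOXD1, an anterior gene, was at 49.3, 67.7 and 61.3 in G244E, against 29.8, 36.2 and 39.04 in WT, and HOXA5 was at 63.2, 46.5 and 51.9 in G244E, against 76.0, 76.5 and 76.2 in WT. HOXB2, which acts in the hindbrain, was at 36.1, 40.04 and 51.1 in G244E and 54.4, 41.2 and 48.0 in K243A, against 30.4, 28.9 and 32.8 in WT. In none of these 4 did the variant overlap WT. With Empty left out of the fit, 9 HOX genes were called in G244E, beside 29.1% of all genes. Of these HOXB2, HOXB6, HOXB7, HOXD1 (24.4, adjusted p = 0.00212) and HOXD8 were higher, and HOXA3, HOXA5 (−22.4, adjusted p = 0.000313), HOXA6 and HOXC13 (−10.6, adjusted p = 0.0198) were lower. In K243A the same fit called 3, beside 13.3% of all genes: HOXB2 (17.2, adjusted p = 0.00489) and HOXB8 (16.5, adjusted p = 0.00146) higher and HOXA5 (−14.2, adjusted p = 0.0294) lower. At the common depth 4 were called in G244E, beside 19.7% of all genes (HOXD1, HOXD12 and HOXD13 higher, HOXA5 lower), and HOXB2 alone in K243A (20.1, adjusted p = 0.0159), beside 6.06%. With only peaks of −log10 q of at least 5, 19 were called in G244E (7 higher and 12 lower), beside 42.6% of all genes, and 11 in K243A (4 higher and 7 lower), beside 30.1%. Of the 7 higher in G244E 4 had no such peak in any G244E library, and of the 4 higher in K243A 2 had none in K243A, so their ranks are those of genes without a peak. Leaving out 1 library gave 0 or 1 call in G244E. The median difference over the 39 genes was 4.33 in G244E and −0.897 in K243A, beside 1.07 and 0.636 over all genes.

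A264C had no HOX gene called and none at an unadjusted p under 0.05, beside 0.0104% and 1.02% of all genes. HOXC13 was at 95.9, 94.0 and 94.8 in A264C, against 92.7, 95.5 and 95.8 in WT, and HOXA5 at 79.0, 80.6 and 83.0, against 76.0, 76.5 and 76.2 in WT. The HOXC13 values overlapped those of WT, and the HOXA5 values lay just above them. The median difference over the 39 genes was 0.262, beside −0.0467 over all genes.

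**Figure D3:**
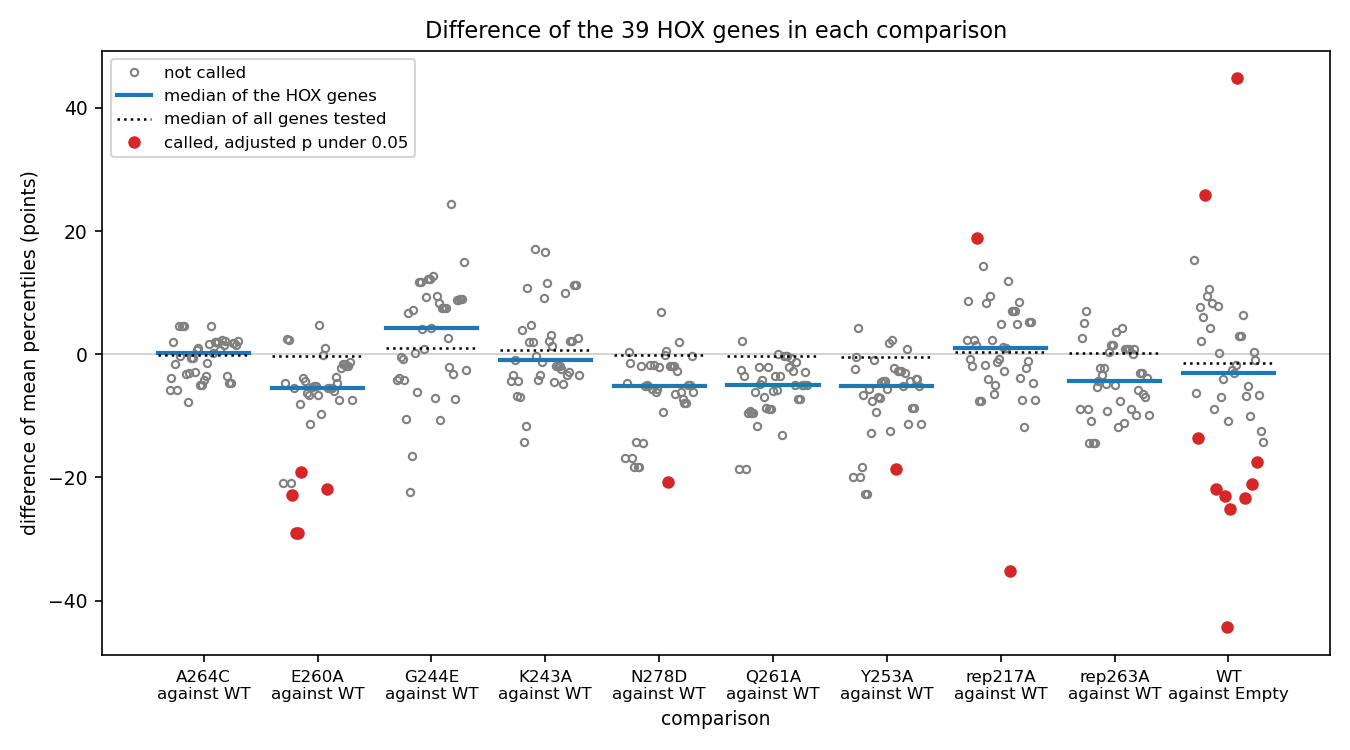
Difference of mean percentiles (points) of the 39 HOX genes in each comparison, variant minus WT and WT minus Empty; each point is a gene, filled where limma's adjusted p was under 0.05, solid lines are the HOX median and dotted lines the median of all tested genes. Most points lie below 0 in E260A, N278D, Q261A and Y253A, where 35, 35, 38 and 35 of the 39 are negative.

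By cluster, the median HOXA percentile (mean over libraries) was 32.5 in E260A, 34.4 in Q261A, 34.9 in Y253A and 36.2 in N278D, against 46.9 in WT, where the libraries ran from 41.1 to 51.0. The libraries of E260A (28.8 to 36.1), Q261A (32.4 to 35.6), Y253A (30.7 to 40.9) and rep263A (37.8 and 38.4) all lay below the WT libraries. The HOXB median was 24.5 in Y253A, 25.4 in Q261A and 25.6 in E260A, and 41.2 in G244E and 38.5 in K243A, against 30.6 in WT (28.3 to 31.9). For HOXB the G244E libraries (38.1 to 44.0) and the K243A libraries (36.5 to 41.5) all lay above WT, and the Empty mean was 41.3. The HOXC median was 24.7 in Y253A, 25.8 in rep263A and 27.0 in E260A, against 36.7 in WT, and the HOXD median 27.0 in rep263A and 29.0 in N278D, against 35.2 in WT. A264C stayed near WT in HOXB (29.1) and HOXC (35.4). These medians moved with the window: with the gene span alone WT had 57.4 for HOXC and 34.0 for HOXA. The best WT peaks of HOXA5 and HOXC13, for example, lie outside the genes.

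**Figure D4:**
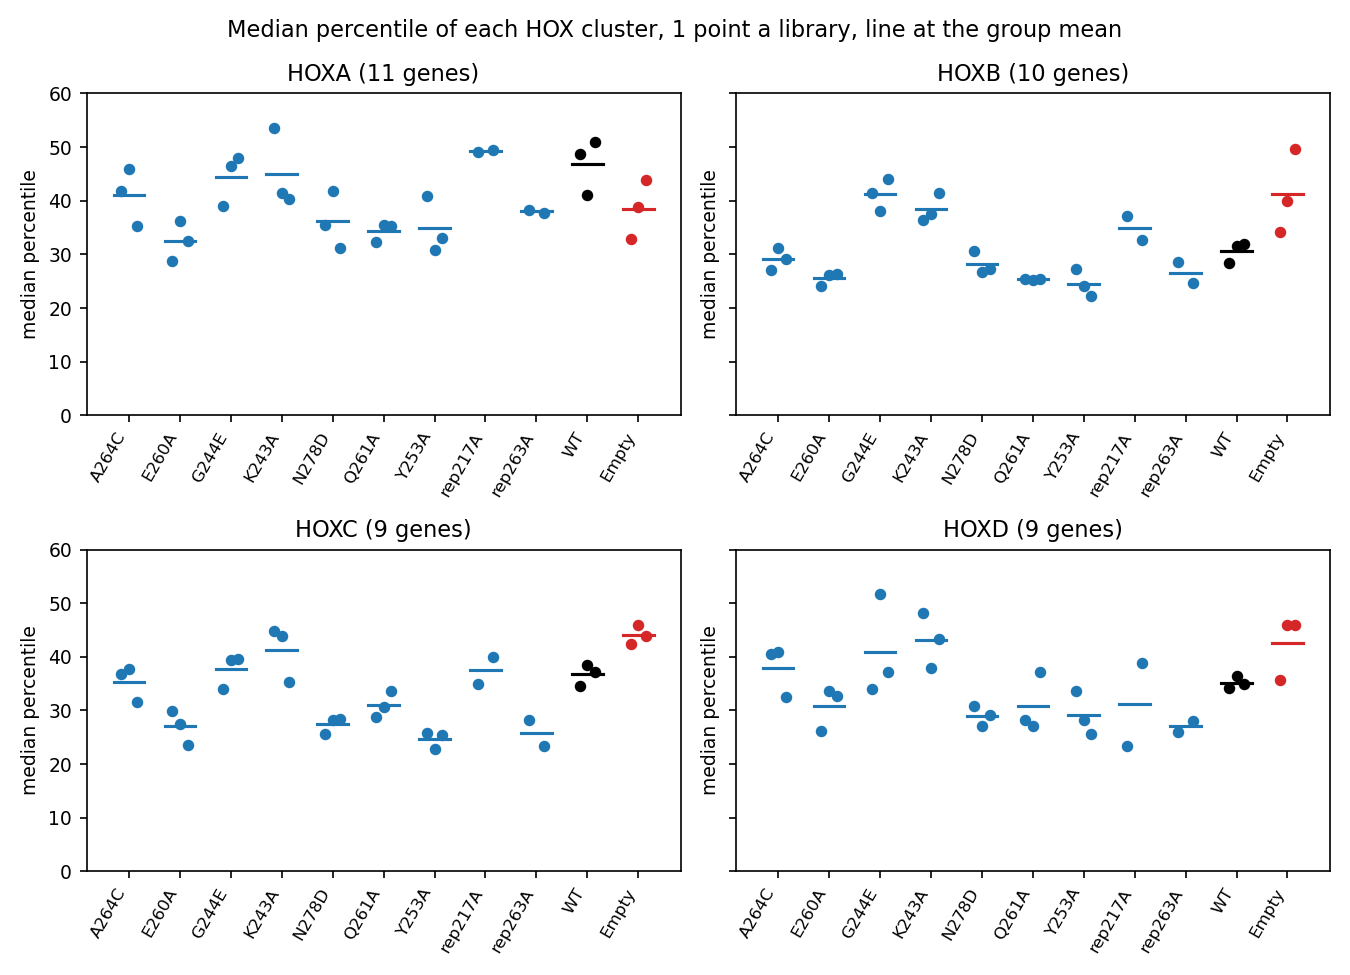
Median percentile of the HOX genes of each cluster (panels), with 1 point for each library and a line at the group mean, for the variants, WT and Empty. HOXB medians in G244E (38.1 to 44.0) and K243A (36.5 to 41.5) lie above all WT libraries (28.3 to 31.9).

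Site by site, more of the 89 HOX sites lay wholly below than wholly above the WT libraries in A264C, E260A, N278D, Q261A, Y253A and rep263A. A site that a library did not list took the middle of the ranks its unlisted sites share, which was a percentile of at most 9.83 in these 6 variants, 17.8 to 24.0 in G244E, K243A and rep217A and 37.2 to 40.03 in Empty. In N278D 29 sites (32.6%) lay below and 4 (4.49%) above, beside 18.7% and 18.9% of all sites. In Y253A 28 (31.5%) lay below and 4 (4.49%) above, beside 19.6% and 18.6%, and in rep263A 28 (31.5%) below and 5 (5.62%) above, beside 19.1% and 19.9%. In E260A 25 (28.1%) lay below and 7 (7.87%) above, beside 20.5% and 19.5%. In Q261A 24 (27.0%) lay below and 5 (5.62%) above, beside 14.2% and 14.9%. A264C had 11 below (12.4%) and 5 above (5.62%), beside 7.71% and 8.85%. In G244E 12 lay below (13.5%) and 19 above (21.3%), beside 18.1% and 20.9%, but only 12 of the 19 were listed in every G244E library (13.5%, beside 10.2% of all sites) and 4 were listed in none. The count over listed sites was added after seeing the data. In K243A 7 lay below (7.87%) and 15 above (16.9%), beside 13.5% and 15.9%, and 11 of the 15 were listed in every K243A library (12.4%, beside 8.24%). In rep217A 17 lay below (19.1%) and 19 above (21.3%), beside 25.4% and 27.2%, and 14 of the 19 were listed in both rep217A libraries (15.7%, beside 19.6%). WT lay above Empty at 11 sites (12.4%), beside 23.2% of all sites. Where an Empty list lacked a site, the site took 37.2 to 40.03 there, and a lower WT percentile could not lie above it. The HOX sites were weaker than most in WT, so these shares are not compared. No count of sites below Empty is drawn on, since of the 23 found 15 were in no Empty list and 1 was in all 3.

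The site beside HOXA5 lay below WT in 8 of the 9 variants and above it in A264C, while the main HOXC13 site overlapped WT in A264C and K243A and lay below it in the other 7. The site inside HOXC4 lay below WT in E260A, N278D and Y253A and above it in A264C, G244E and rep217A. The HOXA4 promoter site lay above WT in G244E and rep217A and below it in E260A, N278D, Q261A, Y253A and rep263A. The share of the 89 HOX sites listed again was lower than that of all sites in rep263A (70.8% and 74.2%, beside 80.3% and 81.3% of all sites), and ran from 16.9% to 37.1% in Empty, beside 19.9% to 25.6% of all sites.

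**Figure D5:**
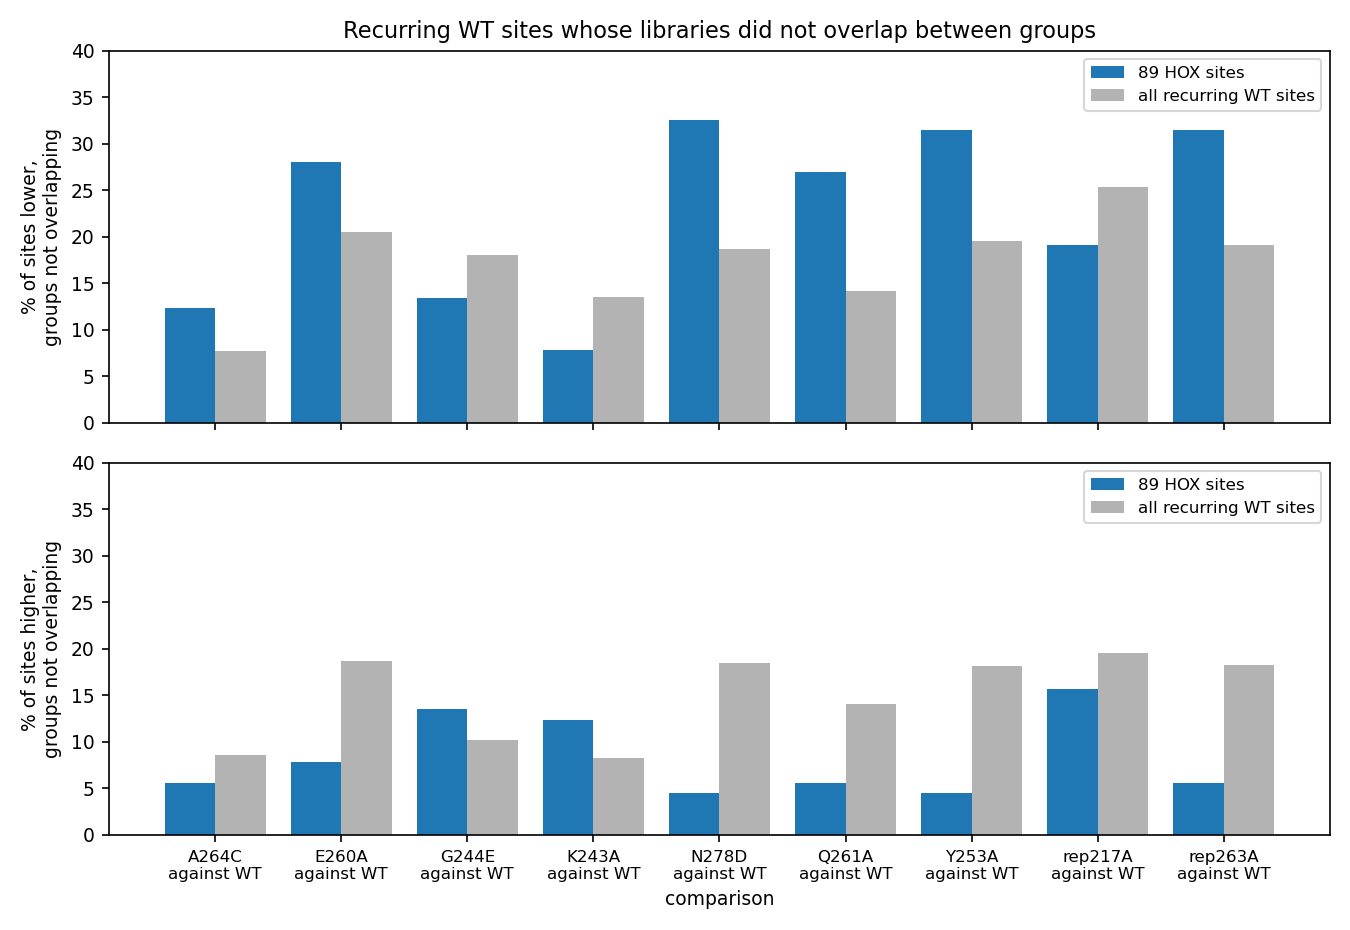
Percentage of sites whose variant libraries lay all lower (upper panel) or all higher (lower panel) than the WT libraries, counting a site only where every library of the higher group listed it, for the 89 HOX sites (blue) and all 103822 sites (grey). For N278D the HOX bar below WT is 32.6%, beside 18.7% of all sites, and for G244E the HOX bar above WT is 13.5%, beside 10.2%.

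Strong peaks, taken as the 10000 of highest −log10 q in a list, fell at few HOX genes, and the counts moved with the cut and the ranking. In A264C and in WT 7 HOX genes held one in every library (HOXA3, HOXA5, HOXA6, HOXC4, HOXC5, HOXC6 and HOXC13), beside 27.5% of all genes in A264C and 26.9% in WT. HOXC4, HOXC5, HOXC6 and HOXC13 did so in E260A (24.7% of all genes), G244E (24.9%), K243A (24.6%), Q261A (23%) and rep263A (25.8%). In N278D (23.3%) and Y253A (23.4%) it was HOXC4, HOXC5 and HOXC6. In rep217A (23.8%) HOXA3 and HOXA4 joined those 3. In Empty (13.1%) it was HOXB7. Single Empty libraries held strong peaks at 8 to 10 HOX genes, against 7 in each WT library. HOXA3, HOXA5, HOXA6, HOXC4, HOXC5 and HOXC6 held one in 2 of the 3 Empty libraries, and HOXC13 in 1. Ranked by fold, the count was 1 in each WT and A264C library, 6 to 10 in G244E and 8 to 11 in Empty. Among the 5000 strongest peaks it was 1 in each WT library, 4 in each A264C library and 5 to 9 in Empty. For these counts of single libraries no share of all genes was computed, so no difference between groups is read from them. The 10000th peak had a −log10 q of 1.63 to 1.87 in Empty, against 92.1 to 100.2 in WT. Peaks of equal −log10 q were ranked by position.

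Genes tied to HOX function ranked higher than the HOX genes in WT, and in Empty as well. These lists were not matched to the HOX genes for gene length. The median WT percentile was 74.3 over 9 TALE cofactor genes, 71.7 over 15 Polycomb genes and 70.1 over 9 trithorax genes, and 25.8 over 14 genes of other homeobox clusters and ParaHox. Over 44 other protein-coding genes within 500000 bp of the clusters it was 56.2. In Empty the medians were 62.8 for the TALE cofactor, 67.0 for the Polycomb and 77.5 for the trithorax genes. They were 34.0 for the other homeobox genes and 54.6 for the genes near the clusters. The HOX median was 35.2 in WT and 44.8 in Empty. The order of these lists above the HOX genes is thus not particular to WT. DLX2, a homeobox gene outside the clusters, was lower in E260A (−26.3, SE 5.77, adjusted p = 0.00574) in Y253A (−21.2) and in rep217A (−36.5), and is named because it was called in 3 variants. Markers of cell types are given as a description: peak lists show binding and not expression, so they do not check the labelled cell type. The median percentile of 10 melanocyte markers was 89.7 in WT, against 68.7 in Empty. PMEL, DCT, OCA2, SLC45A2 and MLANA ranked higher in WT and SOX10 lower, beside 20.7% of all genes called higher and 20.4% lower. Median WT percentiles were 33.2 for hepatocyte, 15.9 for keratinocyte and 17.5 for lymphoid markers. The 5 genes outside the clusters whose 11 group means followed the median HOX percentile most closely were ACAP1 (Pearson r = 0.985), RAB13 (0.980), RPS27 (0.980), KCTD11 and TMEM95 (both 0.977). This likeness is a description over 11 group means. RAB13 and RPS27 had the same WT mean, 52.6, and ACAP1, KCTD11 and TMEM95 the same WT mean, 43.7.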

How the data were processed

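CUT&Tag libraries for HA-tagged MITF, 33 in all, were deposited as narrowPeak lists with hg38 coordinates, per the labels. MACS2, Bowtie2 2.3.4.3 and bcl2fastq 2.20.0.422 are listed in the submitters' processing notes, and the MACS2 version, any control and the treatment of duplicates are not given in the sources used here. Each list is of 1 library. The authors deposited for each peak a fold (the ratio of summit to local background), a −log10 p, a −log10 q and the offset of the summit from the start of the peak, which were read as deposited. The score column was not used.

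Genes came from the RefSeq table of GRCh38.p14, which gives spans without strand or exons, so only gene ends are named. A gene's percentile in a library is its rank by the highest −log10 q within 5000 bp, over 19974 genes. The 19251 genes with a peak in at least 2 libraries were fitted with limma 3.58.1 (R 4.3.3), 1 mean for each of 11 groups with a trended prior, and p-values were adjusted by Benjamini-Hochberg within each of 10 comparisons. Pileups and backgrounds were recovered as whole fragments from fold and p within a tolerance of 0.001. For equal depth, pileups were thinned by binomial sampling, as means of 5 draws. Sites were compared by whether the libraries of both groups overlapped, with no test. Scripts ran in Python 3.11.15 (numpy 2.4.6, scipy 1.17.1, pandas 2.3.3, numba 0.67.0, matplotlib 3.10.9).

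The fit and the recovery of pileups were tested on simulated data. With 200 genes moved in N278D, the fit called 0% of those moved by 10 points, 28.5% by 20 and 89.5% by 40. False calls numbered 0, 0 and 8. A gene without a call may therefore still have moved. Of 18034 simulated peaks 100% had their pileup recovered. Genes were named by rule: in each cluster the 3 of highest and 2 of lowest WT mean, the called HOX genes up to 12 for WT against Empty and up to 6 for each variant, and the 5 genes most like the HOX median. Some genes of these lists are not reported by name here. Others named were chosen after their values were seen. The members, lists and alternatives were chosen with earlier results of these data known. The alternatives were other windows, ranking by fold, normal scores, no filter, a stricter −log10 q, a replicate block, identical lists kept separate, 2 equal depths, each library left out and Empty left out.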

Additional observations from a re-analysis of the deposited data

How the results depend on the processing

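Counts of called HOX genes moved with many settings, and the cause was not tested; shares in parentheses are of all genes called. With Empty left out of the fit, an alternative chosen after seeing the data, the counts were 8 in E260A (17.3%), 8 in N278D (13.3%), 8 in Y253A (12.7%), 3 in Q261A (6.03%) and 1 in rep263A (3.13%), all lower, with 9 in G244E (5 higher, 29.1%), 3 in K243A (2 higher, 13.3%) and 3 in rep217A (1 higher, 30.1%). With peaks of −log10 q of at least 5 only, they were 9 in E260A (16.0%), 7 in N278D (12.1%), 10 in Y253A (11.8%), 3 in Q261A (6.06%) and 6 in rep263A (3.92%), all lower. They were 19 in G244E (7 higher, 42.6%), 11 in K243A (4 higher, 30.1%) and 7 in rep217A (2 higher, 39.8%). In WT against Empty the same setting called 29 (10 higher and 19 lower, 69.2%), but no Empty library had such a peak at any HOX gene, so the 19 lower compare WT with genes without a peak. At the common depth the counts were 10 in E260A (10.7%) and 3 in N278D (7.32%), all lower, 4 in G244E (3 higher, 19.7%) and 1 in K243A (higher, 6.06%). At the depth limit of Empty they were 0 in E260A (0.686%), N278D (0.130%), Y253A (0.109%) and rep217A (3.36%), and 3 in WT against Empty (2 higher, 18.0%). Ranking by fold gave 1 in E260A (lower, 3.97%), 3 in G244E (higher, 24.7%), 1 in K243A (higher, 17.4%), 1 in rep217A (lower, 17.0%) and 0 in N278D (2.65%) and Y253A (2.69%). The gene span alone gave 2 in E260A (1 higher, 3.41%), 1 in rep217A (lower, 9.77%) and 0 in N278D (1.26%) and Y253A (1.36%). A window of 1000 bp gave 3 in E260A (1 higher, 4.83%), 1 in G244E (higher, 10.8%) and 0 in N278D (2.71%) and Y253A (2.87%). Normal scores gave 2 in G244E (lower, 14.9%) and 1 in Q261A (lower, 1.81%), and identical lists kept separate gave 2 in G244E (1 higher, 14.1%). Leaving out 1 library gave 1 to 2 in E260A, 0 to 1 in G244E, N278D and Y253A, 1 in rep217A, 5 to 15 in WT against Empty and 0 in A264C, K243A, Q261A and rep263A.

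Signs turned only with a smaller window. For E260A against WT, HOXA9 came to 3.83 with 1000 bp. The gene span gave no value for HOXA6 and HOXA9, nor 1000 bp for HOXA6, since no E260A or WT library had a peak there. For WT against Empty, HOXA11 came to 0.314 and HOXB13 to 5.79 with the gene span alone, and HOXB13 to 3.495 with 1000 bp. Of the 44 cluster medians, 29 moved by at least the SD between libraries with the gene span alone, 27 with 1000 bp, 19 at the common depth and 9 with ranking by fold.

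With the replicate number as a replicate block, the count was 1 in rep217A and 4 in E260A, and in the other comparisons it was the same as without the block. The numbers did not pair the libraries: deviations of same-numbered libraries correlated above 0.1 in 3 of 146 pairs (median −0.00134), and 10 of 31 libraries correlated best with their own number. In Empty, where most peaks held 1 fragment, the percentiles order very small counts.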

Other observations

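Calls in the lists of related genes are given as counts. For WT against Empty, 20.7% of all genes were called higher and 20.4% lower. In that comparison 3 of the 9 TALE cofactor genes ranked higher, MEIS2 and PBX4 among them, and MEIS3 ranked lower. Of the 15 Polycomb genes 6 ranked higher (BMI1, SUZ12, CBX2, CBX7, CBX8 and JARID2) and 1 lower (PHC1). Of the 9 trithorax genes KDM6B, an H3K27 demethylase, ranked higher and KDM6A lower. Of the 14 other homeobox genes DLX2 and DLX6 ranked higher, and DLX3, DLX4 and DLX5 lower. Of the 44 genes that flank the clusters 8 ranked higher and 12 lower.

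Among the variants, rep217A had the most calls in these lists. SUZ12 (−22.5), EZH2 (−25.0), PCGF2 (−21.1) and CBX8 (−21.1) of the Polycomb genes ranked lower in rep217A, where 7.81% of all genes were called lower. EVX1, the homeobox gene next to the HOXA cluster, averaged 30.03 in rep217A, against 14.7 in WT (15.4 points). In E260A the keratinocyte gene IVL averaged 85.6, against 18.4 in WT (67.1 points), and was chosen after its value was seen. MITF itself averaged 93.9 in WT, against 95.5 in Empty.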
